A study of Mus musculus with 2 samples.

Results

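Purkinje cells are the GABAergic output neurons of the cerebellar cortex. In the mouse they leave the cell cycle before birth, settle into a layer around the time of birth and grow their dendrites afterwards. The 9 genes described here (Pcp2, Pcp4, Calb1, Car8, Itpr1, Skor2, Rora, Lhx1 and Lhx5) are used as markers of these cells. They were taken as a named list, which was chosen with earlier results of these data known. They are 9 of the 43346 Ensembl genes in the deposited tables, and 25 transcripts were listed for them. Of the 9, Pcp4 and Pcp2 encode small proteins that modulate calmodulin and G proteins, Calb1, Car8 and Itpr1 act in calcium handling, and Rora, Lhx1, Lhx5 and Skor2 encode nuclear factors.

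The tissue was hindbrain, which holds cerebellum, pons and medulla, of healthy mice of strain B6NTac;B6NCrl/Lap at postnatal day 0, with males and females pooled. The series has 1 group of 2 libraries of ribosomal RNA-depleted total RNA over 200 nt, read as stranded pairs. Replicate 1 came from 15 mice and replicate 2 from a pool whose size is not given. The labels call the libraries independent isolates but give both the same donor identifier, and differences between them may therefore be technical. There is no second condition. With 2 libraries the smallest p of an exact sign-flip test is 0.5, so the values are descriptions with no test.

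Depth was 54313140 expected counts in replicate 1 and 77142270 in replicate 2. An expected count is an estimated number of fragments, and TPM (a length-scaled abundance) divides it by the length open to fragments and scales the table to a fixed sum. Of all TPM, nuclear genes that encode proteins took 28.1% in replicate 1 and 19.3% in replicate 2. The median coding gene over 1 TPM in both libraries was therefore lower by −0.52 on the log2 scale in replicate 2, while the median log2 ratio of scaled counts was 0.00. Levels in TPM are compared between genes within a library, and libraries are compared by scaled counts. An SD of TPM over the 2 libraries includes this shift, so it does not measure the spread of the gene alone. With TPM rescaled over coding genes, Pcp4 had 212 TPM in replicate 1 and 216 TPM in replicate 2.

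All 9 genes reached 1 TPM in both libraries, against 54.6% of 21461 protein-coding genes. That 54.6% is also the background for every count of detected genes in the other lists. At 5 TPM 8 of 9 did so, against 32.4% of coding genes, and Skor2 missed that level with 4.83 TPM in replicate 2. Their median was 13.8 TPM in replicate 1 and 9.95 TPM in replicate 2, while the median coding gene had 2.37 and 1.72 TPM. Each gene exceeded between 62.2% and 96.7% of coding genes in a library. The highest gene was 10.9 times the lowest in replicate 1 and 8.59 times in replicate 2. Because this is bulk tissue, fewer Purkinje cells and less RNA per cell cannot be told apart, and several of these genes are also expressed in other hindbrain neurons.

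**Figure D1:**
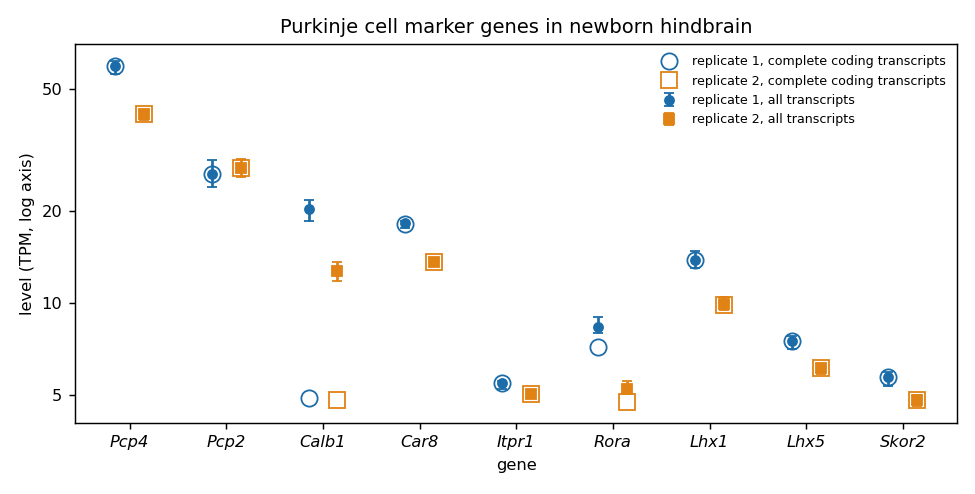
Level of each of the 9 marker genes (TPM, log axis) in replicate 1 (blue circles) and replicate 2 (orange squares). Filled symbols cover all annotated transcripts, with the deposited interval as bars, and open symbols cover complete protein-coding transcripts, which for Calb1 lie at 4.89 and 4.82 TPM, far below the filled ones.

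Pcp4 (PEP-19), a small protein that binds calmodulin and speeds its exchange of calcium, had the highest level of the 9. It lies on chromosome 16, at 96467606 to 96525793 on the plus strand (mm10). Its level was 59.53 TPM in replicate 1 and 41.50 TPM in replicate 2, a mean of 50.5 ± 12.7 TPM (SD, n = 2). It exceeded the next gene, Pcp2, by 0.87 ± 0.41 on the log2 scale, in both libraries. The related gene Pcp4l1, which encodes a similar calmodulin-binding motif, had 5.42 and 4.49 TPM, so that Pcp4 was 11.0-fold and 9.24-fold higher. The annotation used for symbols (GENCODE M21) places the gene Igsf5 across Pcp4 on the same strand, with 243 nt of shared exon sequence. The deposited tables hold no entry for Igsf5, so its part in the Pcp4 level was not tested.

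Pcp2 (L7), whose GoLoco domain binds inhibitory G protein α subunits, is in cerebellum the classical Purkinje cell transcript and the source of the promoter used in Purkinje cell Cre lines. It lies on chromosome 8, at 3623371 to 3625545 on the minus strand (mm10). Its level was 26.52 TPM in replicate 1 and 27.72 TPM in replicate 2 (27.1 ± 0.849 TPM, SD, n = 2). With TPM rescaled over coding genes the libraries lay further apart, at 94.5 and 144 TPM. These TPM rest on the smallest counts of the 9 genes, 395 in replicate 1 and 885 in replicate 2. The transcripts are short, with an effective length of 181.87 and 193.19 nt, so a small number of fragments gives a high TPM. Gpsm1, the GoLoco gene chosen as a pair for Pcp2, was higher than Pcp2, at 86.48 and 63.25 TPM. Another GoLoco gene, Gpsm3, was lower than Pcp2, at 0.95 and 0.91 TPM.

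Most Pcp2 RNA was assigned to transcripts that begin inside the gene. The leading transcript was Pcp2-203, with 59.91% of the gene's TPM in replicate 1 and 67.51% in replicate 2. It encodes 120 residues. Pcp2-205, which starts 47 nt further downstream and keeps the first intron of Pcp2-203 as exon, held 19.97% and 16.11%. Pcp2-201, which has its own first exon upstream, held 18.38% and 11.19%. Both Pcp2-205 and Pcp2-201 encode 99 residues. Transcripts from the most upstream starts, 4 in number, held 1.75% and 5.19% together. By position, the downstream starts of Pcp2-203 and Pcp2-205 took 81.8 ± 2.64% of TPM, the middle start of Pcp2-201 14.8 ± 5.08% and the upstream starts 3.47 ± 2.43% (SD, n = 2).

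The promoter windows of these starts are shown because the transcript shares differ between them. Both are from RefSeq on GRCm38.p6, minus strand, 250 bases before to 50 bases after the start, and capitals mark AGGTCA or GGGTCA on either strand and TAATTA. The letters AGGTCA are the core of the element bound by RORα and other nuclear receptors, and TAATTA is a core that many homeodomain proteins bind. The downstream window covers chr8:3624987-3625286 and the middle window chr8:3625233-3625532, and they share 54 bases.
Pcp2 downstream start: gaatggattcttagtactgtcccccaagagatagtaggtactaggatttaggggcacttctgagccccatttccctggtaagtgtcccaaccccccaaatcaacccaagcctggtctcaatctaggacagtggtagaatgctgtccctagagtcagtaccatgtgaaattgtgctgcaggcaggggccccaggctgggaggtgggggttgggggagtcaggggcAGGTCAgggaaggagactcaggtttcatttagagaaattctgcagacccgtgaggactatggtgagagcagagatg
Pcp2 middle start: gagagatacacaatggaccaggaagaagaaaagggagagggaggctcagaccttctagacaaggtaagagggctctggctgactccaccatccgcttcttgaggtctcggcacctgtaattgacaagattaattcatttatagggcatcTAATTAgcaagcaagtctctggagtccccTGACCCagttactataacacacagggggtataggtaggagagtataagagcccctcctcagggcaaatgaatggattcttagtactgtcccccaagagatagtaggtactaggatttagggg

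RefSeq's start in the downstream window lies 13 nt from that of Pcp2-203, and its start in the middle window is that of Pcp2-201. The downstream window holds AGGTCA on the gene's strand 26 bases before the start. The middle window holds no AGGTCA, but GGGTCA on the other strand and TAATTA. Both windows that RefSeq gives for the upstream starts hold the same AGGTCA. Of 32851 mouse promoter windows of this length, 16.3% hold AGGTCA, 13.7% GGGTCA and 5.29% TAATTA on either strand. Of the 9 genes, Pcp2, Pcp4, Lhx1 and Rora had such windows, 7 in all. AGGTCA was in 4 of them, 3 of Pcp2 and 1 of Pcp4. A match of letters is a description and not a binding site.

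**Figure D2:**
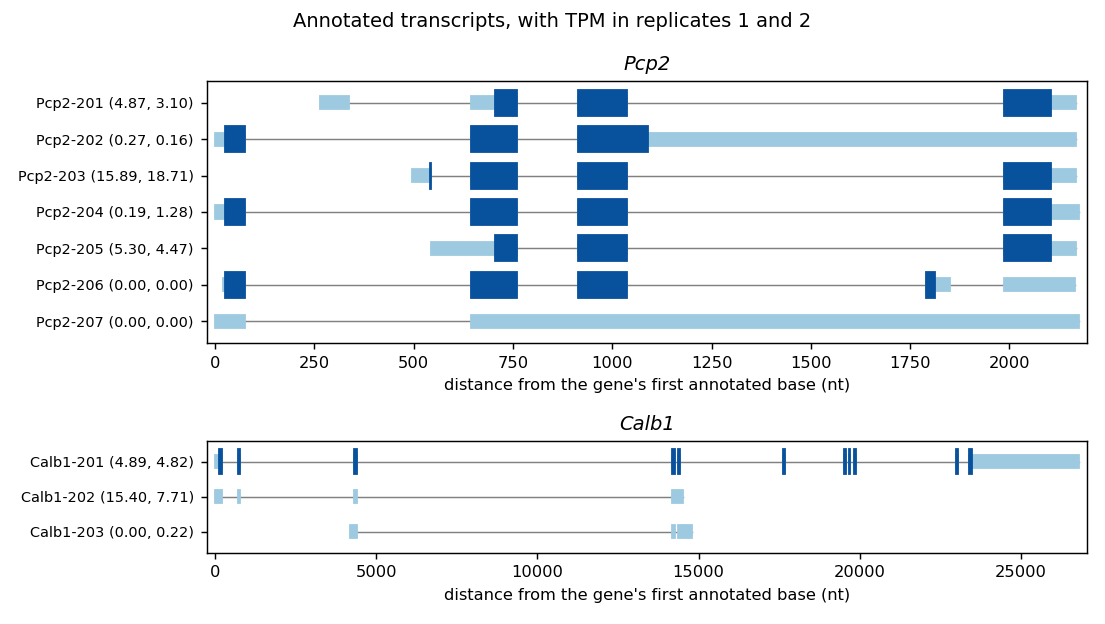
Exons (light) and coding parts (dark) of the annotated transcripts of Pcp2 and Calb1 along the gene, in nt from its first annotated base, with TPM in replicates 1 and 2 in brackets. Pcp2-203, at 15.89 and 18.71 TPM, starts inside the gene, and Calb1-202, at 15.40 and 7.71 TPM, ends before most coding exons.

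Calb1 (calbindin D28k), the calcium buffer that fills Purkinje cells and their axons, had 20.30 TPM in replicate 1 and 12.75 TPM in replicate 2 (16.5 ± 5.34 TPM, SD, n = 2). It lies on chromosome 4, at 15881264 to 15908064 on the plus strand. Its level could not be ordered against Car8, since their difference was 0.03 ± 0.18 on the log2 scale and changed sign between the libraries. Most of this level was assigned to a transcript with no annotated coding sequence. Calb1-202, annotated as retaining an intron, made up 75.89% of TPM in replicate 1 and 60.44% in replicate 2, and the coding Calb1-201 24.11% and 37.83%. Calb1-202 is 701 nt long and Calb1-201 4222 nt, so that by counts the order was the other way round: Calb1-201 had 1566.60 and 3130.53 expected counts, against 488.40 and 516.44 for Calb1-202. Within each library the coding transcript was lower in TPM, at 4.89 and 4.82, than Calb1-202, at 15.40 and 7.71.

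The sequences at the end of exon 4 show where these transcripts part. They are read from GENCODE M21 on GRCm38, with 24 shared bases of exon 4 in lower case and the next 30 bases in capitals. The capitals are the first bases of exon 5 in Calb1-201 (chr4:15895629-15895685) and of intron 4 in Calb1-202 (chr4:15895525-15895628).
Calb1-201: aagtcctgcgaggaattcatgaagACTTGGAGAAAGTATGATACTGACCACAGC
Calb1-202: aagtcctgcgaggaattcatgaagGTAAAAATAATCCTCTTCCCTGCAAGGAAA

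In Calb1-202 the last exon runs through the 104 nt of intron 4 and all of exon 5 and ends 92 nt into intron 5. The libraries were made from total RNA, in which unspliced RNA is also present, and its part in these shares was not tested. Among other EF-hand buffers, Calb2 (calretinin) had 14.19 and 12.50 TPM, and its difference from Calb1 (0.27 ± 0.34 on the log2(TPM + 0.1) scale) did not exceed the spread. With complete coding transcripts alone, Calb1 was at 0.345 times Calb2 in replicate 1 and 0.386 times in replicate 2. Pvalb (parvalbumin), a marker of mature Purkinje cells and interneurons, was low at 0.53 and 0.32 TPM from 28 and 35 counts. Hpca was the highest of the 11 EF-hand genes listed besides Calb1, at 81.28 and 51.28 TPM. Of these 11, which include Calb2 and Pvalb, 8 reached 1 TPM in both libraries. S100g had no count in either, and the floor of 3 counts was 0.220 TPM in replicate 1.

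Car8 encodes a carbonic anhydrase-related protein that has lost catalytic activity and binds the IP3 receptor, lowering its affinity for IP3, and its loss causes ataxia in waddles mice. The gene lies on chromosome 4, at 8143362 to 8239041 on the minus strand. It had 18.25 TPM in replicate 1 and 13.64 TPM in replicate 2 (15.9 ± 3.26 TPM, SD, n = 2), from 5291 and 8016 counts on its single listed transcript. It exceeded Car10 1.31-fold and 1.32-fold. Car11 was higher than Car8 over all transcripts, at 25.40 and 17.34 TPM, but over complete coding transcripts Car8 was at 0.902 and 1.07 times Car11, so their order was not fixed. The catalytic Car2 had 34.44 and 15.11 TPM, above Car11 in replicate 1 and below it in replicate 2, and over complete coding transcripts it had 14.1 and 8.87 TPM. The family list holds 15 genes besides Car8. Of those 15, 7 reached 1 TPM in both libraries, against 54.6% of coding genes. Car6 had no count in either library, with a floor of 0.0451 TPM in replicate 1.

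Itpr1 encodes the IP3-gated calcium channel of the endoplasmic reticulum, a major protein of Purkinje cells. Over all transcripts it had the lowest mean level per length together with Skor2. Over complete coding transcripts Calb1 had the lowest mean, 4.86 TPM, against 5.26 TPM for Itpr1 and 5.28 TPM for Skor2. The level of Itpr1 was 5.47 TPM in replicate 1 and 5.05 TPM in replicate 2 (5.26 ± 0.297 TPM, SD, n = 2). Its difference from Skor2 was 0.00 ± 0.09 on the log2 scale, so these neighbours in the order did not differ beyond their spread. The gene spans 338014 nt on chromosome 6, from 108213096 to 108551109 on the plus strand. With an effective length of 9534.1 nt in replicate 1 its low TPM stands for 4269 counts there and 7979 in replicate 2, the 3rd highest and 2nd highest counts of the 9 genes. The deposited tables list 1 transcript of Itpr1, Itpr1-201, where GENCODE M21 has 13, so its splice forms could not be compared. Itpr1 exceeded Itpr2 1.22-fold and 1.92-fold over all transcripts, and 2.85-fold and 2.87-fold over complete coding transcripts. It exceeded Itpr3 8.55-fold and 6.64-fold.

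The other genes of the IP3 and calcium store route were mostly detected. Of 24 such genes without the markers themselves, 21 reached 1 TPM in both libraries, against 54.6% of coding genes. The 24 had a median of 9.22 TPM in replicate 1 and 5.18 TPM in replicate 2. The calcium pump gene Atp2a2 led with 66.72 and 44.04 TPM, followed by the glutamate receptor gene Grm5 with 49.37 and 33.63 TPM and the G protein genes Gna11 (33.82 and 26.67 TPM) and Gnaq (28.68 and 19.36 TPM). Below 1 TPM in at least 1 library were Itpr3 at 0.64 and 0.76 TPM, Ryr1 at 0.72 and 0.59 TPM and Atp2a3 at 1.27 and 0.45 TPM.

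Rora encodes the nuclear receptor RORα, whose loss in staggerer mice leaves immature Purkinje cells that degenerate. The gene spans 734461 nt on chromosome 9, from 68653786 to 69388246 on the plus strand. Its level was 8.37 TPM in replicate 1 and 5.25 TPM in replicate 2 (6.81 ± 2.21 TPM, SD, n = 2), from 5466 and 7235 counts. It was not distinguished from Lhx5, with a difference of 0.03 ± 0.26 on the log2 scale and opposite signs in the libraries. Rora was 2.79-fold and 2.92-fold higher than Rorb, which had 3.00 and 1.80 TPM. Of 8 other genes listed as partners or relatives of RORα, 7 were at 1 TPM or more in both libraries. The corepressor Ncor1 had the highest level over all transcripts, 44.10 and 25.95 TPM, but 7.17 and 5.60 TPM over complete coding ones, below Kat5 (19.3 and 11.0 TPM) and Ncoa2 (16.2 and 10.1 TPM). The lowest was Hr at 0.74 and 0.41 TPM.

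Rora transcripts from the far upstream start were the main form. Rora-201, of 523 residues, made up 71.48% of TPM in replicate 1 and 74.23% in replicate 2. Rora-202, of 467 residues, starts 635896 nt downstream and held 14.48% and 15.96%. Their ratio was 4.94 and 4.64, a mean of 4.79 ± 0.212 (SD, n = 2). Rora-206, annotated as a target of nonsense-mediated decay, had 8.96% in replicate 1 and no count in replicate 2, with a floor of 0.0399 TPM. The sequences show where these forms join, with the last bases of their own in capitals and the start of the shared exon in lower case. The capitals lie at chr9:69196075-69196104 for Rora-201 and at chr9:69290021-69290048 for Rora-202 (GENCODE M21, GRCm38), and those of Rora-202 begin with its start codon.
Rora-201: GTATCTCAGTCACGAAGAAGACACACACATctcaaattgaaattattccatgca
Rora-202: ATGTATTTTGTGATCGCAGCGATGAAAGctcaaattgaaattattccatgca

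**Figure D3:**
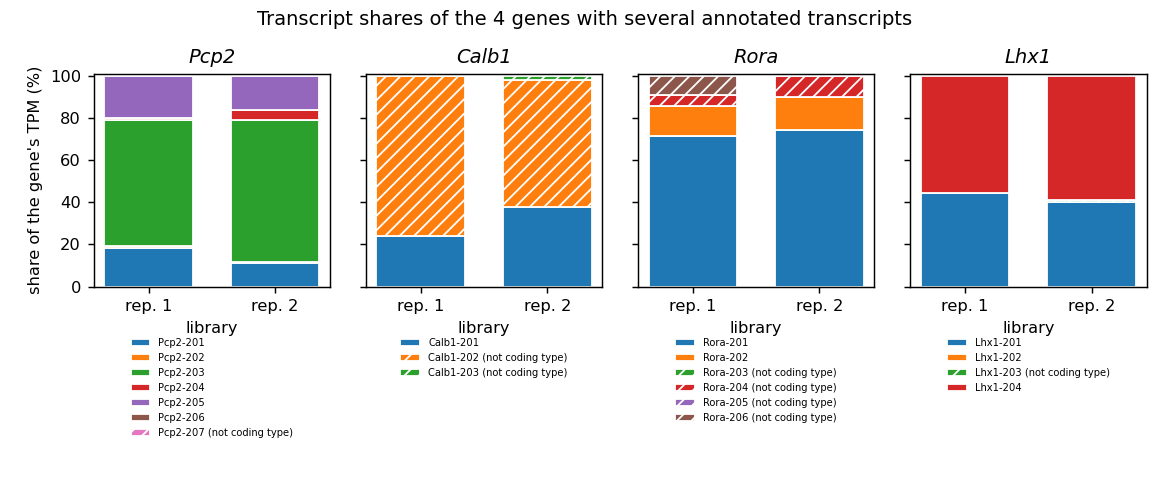
Share of each annotated transcript in its gene's TPM (%), by library, for the 4 genes with several transcripts in the tables; hatching marks transcripts of a type other than protein-coding. The retained-intron Calb1-202 takes 75.89% and 60.44%, and Rora-201 takes 71.48% and 74.23%.

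Lhx1 and Lhx5 encode LIM homeodomain factors that act together, with the cofactor Ldb1, in Purkinje cell differentiation, and both also mark other groups of hindbrain and spinal interneurons. Lhx1 (chromosome 11, 84518284 to 84525535, minus strand) had 13.81 TPM in replicate 1 and 9.95 TPM in replicate 2 (11.9 ± 2.73 TPM, SD, n = 2). Lhx5 (chromosome 5, 120431699 to 120441223, plus strand) had 7.53 and 6.12 TPM (6.83 ± 0.997 TPM, SD, n = 2). Lhx1 was higher in both libraries, 1.83-fold and 1.63-fold. The larger share of the Lhx1 level was assigned to Lhx1-204, which encodes 315 residues in place of 406. Lhx1-204 lacks the first coding exon, and its coding sequence starts within the next coding exon of the longer form. Lhx1-204 held 55.40% and 58.87% of TPM and the full-length Lhx1-201 44.60% and 40.03%. By counts the full-length form led, with 1782.00 and 2335.50 counts against 556.00 and 875.98 for Lhx1-204.

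Near Lhx1, the long non-coding Lhx1os begins 124 nt away on the opposite strand and had 8.22 and 6.77 TPM from 174 and 272 counts. Among the 20 other genes of LIM factors and their cofactors 15 reached 1 TPM in both libraries, against 54.6% of coding genes. The 20 had a median of 6.95 and 3.79 TPM. The cofactor genes were highest: Ssbp4 had 56.97 and 35.09 TPM, Ssbp3 43.64 and 29.58 TPM, Lmo4 41.21 and 31.96 TPM and Ldb1 39.54 and 27.65 TPM. Isl2 was low at 0.44 and 0.23 TPM, and Lhx8 had no count in either library, with a floor of 0.0403 TPM in replicate 1.

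Skor2 (Corl2) is a corepressor of the Ski family that in the cerebellum is restricted to Purkinje cells and is required for their maturation. The gene, on chromosome 18, had 5.72 TPM in replicate 1 and 4.83 TPM in replicate 2 (5.28 ± 0.629 TPM, SD, n = 2), from 1324 and 2272 counts. Its single transcript model is 3141 nt long, of which 114 nt are untranslated. Skor1 exceeded Skor2, with 10.75 and 6.95 TPM, and Skor2 was at 0.532 and 0.695 times its level. All 7 other Ski and Smad genes reached 1 TPM in both libraries, and Smad4 had the highest level at 37.17 and 29.51 TPM. Over complete coding transcripts Smad4 had 18.7 and 12.2 TPM, below Ski at 19.9 and 13.4 TPM.

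**Figure D4:**
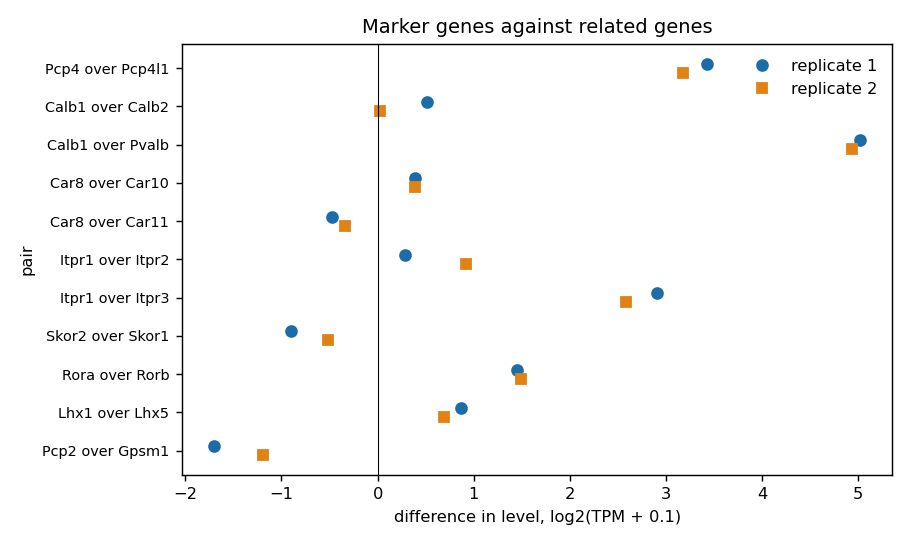
Difference in level between each marker gene and a related gene, log2(TPM + 0.1), in replicate 1 (blue circles) and replicate 2 (orange squares), with 0 marking equal levels. Of 11 pairs, 10 differ in mean by more than the SD between libraries, and Calb1 over Calb2 (0.51 and 0.03) does not.

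Of 26 further Purkinje cell genes 23 reached 1 TPM in both libraries, against 54.6% of coding genes. The 26 had a median of 11.5 TPM in replicate 1 and 7.54 TPM in replicate 2. The glycolytic gene Aldoc was highest at 222.79 and 157.52 TPM, though astrocytes express it as well. Cbln1, a synaptic organiser that granule cells also make, had 46.19 and 33.91 TPM, Foxp4 30.37 and 24.52 TPM (11.7 and 8.62 TPM over complete coding transcripts), and Gad1, which encodes a GABA-synthesising enzyme of all GABAergic neurons, 31.59 and 20.29 TPM. Below 1 TPM were Shh, the mitogen that Purkinje cells supply to granule cell progenitors (0.97 and 0.87 TPM), Pvalb, and Ppp1r17, a phosphatase inhibitor enriched in Purkinje cells (0.07 and 0.03 TPM from 8 and 7 counts). Progenitor genes of the Purkinje lineage were lower as a list, with a median of 1.59 and 1.63 TPM over 7 genes. Of these 5 reached 1 TPM in both libraries, with Olig2 (19.31 and 11.70 TPM), also an oligodendrocyte precursor gene, highest, Ptf1a at 1.43 and 1.63 TPM, and Neurog1 lowest at 0.04 and 0.08 TPM.

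Markers of neighbouring cells were present in the same RNA. The 11 granule cell genes summed to 291.65 TPM in replicate 1 and 230.52 TPM in replicate 2, with 9 over 1 TPM in both and the mature marker Gabra6 with no count in either, at a floor of 0.0199 TPM in replicate 1. Zic1 (78.5 and 65.34 TPM) and Zic2 (65.24 and 44.86 TPM) were the highest of these granule cell genes. The 8 Bergmann glia genes, all detected, summed to 409.96 and 277.42 TPM. Fabp7 (209.29 and 135.56 TPM) and Slc1a3 (90.69 and 61.23 TPM) were the highest of them. The 10 genes of cerebellar interneurons, nuclei and other hindbrain neurons summed to 61.32 and 38.48 TPM, with 8 detected and Bhlhe22 (21.86 and 12.40 TPM) highest. The 9 Purkinje cell genes summed to 165.50 and 126.81 TPM. The tissue was whole hindbrain, so none of these sums can be assigned to cerebellar cells alone.

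Between the libraries, scaled counts of 7 of the 9 genes were higher in replicate 2, against 49.4% of coding genes. Their median log2 ratio of replicate 2 over replicate 1 was 0.22, against 0.00 for the 15314 coding genes whose count averaged 10 or more. Pcp2 differed most, with a log2 ratio of 0.65 and a counting SE of 0.09, and it was the only one past 1.5-fold, where 18.9% of coding genes lay (11.1% higher and 7.86% lower in replicate 2). Itpr1 (0.39), Calb1 (0.32), Skor2 (0.27) and Lhx5 (0.22) followed, between 4.5 and 14.4 counting SE above 0. Car8 (0.09) lay 3.5 counting SE above 0, and Rora (−0.10) lay below 0, at −4.0 counting SE. Pcp4 (0.06) and Lhx1 (−0.05) lay 1.3 and −1.2 counting SE from 0. The counting SE covers counting error only, and the median absolute log2 ratio of the 15314 coding genes was 0.20. Over the 25 further Purkinje cell genes with enough counts the median log2 ratio was 0.00, and 14 of them were above 0.

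**Figure D5:**
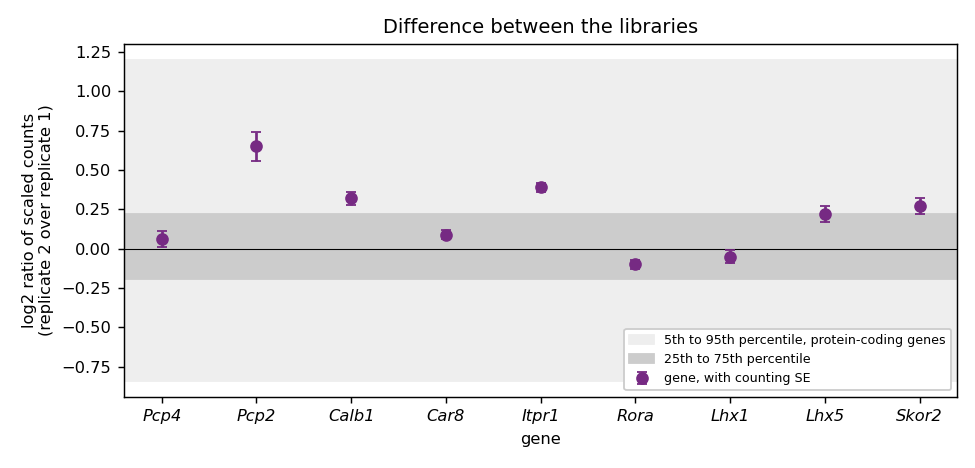
Log2 ratio of scaled counts, replicate 2 over replicate 1, for each gene, with the counting SE as bars, over the 25th to 75th (dark grey) and 5th to 95th (light grey) percentile of coding genes. Pcp2 at 0.65 stands highest, and every gene lies within the 5th to 95th percentile, −0.84 to 1.20.

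Pcp2 lies within Pet100, a gene for a mitochondrial assembly factor on the opposite strand, whose annotated exons cover 182 of the 470 nt of Pcp2-203. Pet100 had 14 counts in replicate 1 and 94 in replicate 2, a log2 ratio of 2.11. Its part in the Pcp2 ratio was not tested, and whether counting used strand is not given in the sources used here. At the 5′ end of Lhx5, 69 nt are shared with the antisense Gm27199, which had 34 and 38 counts against 1420 and 2348 for Lhx5.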

How the data were processed

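Per the labels, both libraries came from ribosomal RNA-depleted total RNA of newborn hindbrain. Per the deposited file notes, the authors quantified alignments to the mm10 transcriptome with GENCODE M4, and no source used here names the aligner or quantifier. The deposited expected counts are estimated and need not be whole, the deposited TPM were scaled by the authors to 1 total that includes the spike-ins, and the deposited percent columns divide a transcript's TPM by that of its gene. The deposited interval bounds on TPM, used as a signal range only, carry no stated level. Raw depth limits each value, and counting errors and the floor of 3 counts cover counting error only, since reads carry no molecular identifiers.

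GENCODE M21, also on GRCm38, supplied symbols, types and coordinates for 42462 of 43346 Ensembl genes (98.0%). Library sizes used mouse gene rows alone. Counts were rounded and scaled by TMM in edgeR 4.0.16 (R 4.3.3), with a prior count of 2, on mouse genes. This step was tested on simulated data. DESeq2 1.42.0 size factors and total counts were alternatives. The libraries differed far beyond sampling noise (chi-square per degree of freedom 100.7) and count as 2 samples. Means are given with SD over both. The 9 genes, the other gene lists and the pairs were chosen with earlier results of these data known. The text names the 9, their pairs, up to 4 of the highest and 2 of the lowest genes of each list, transcripts with a share of at least 10%, and opposite-strand genes overlapping a marker whose count averages 10 or more. Rora-206, Lhx1os, Shh and Atp2a3 fall outside this rule and were chosen after their values were seen. Igsf5 also falls outside it and has no values in the deposited tables. Some genes of these lists and 1 pair are not reported here. No genes of like pattern are named, since 2 libraries give no pattern. Complete coding transcripts are those typed protein-coding without an incomplete end, a setting chosen after the data were seen.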

Additional observations from a re-analysis of the deposited data

How the results depend on the processing

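The detection of the 9 genes, the number of pairs with the marker gene higher (8 of 11, and 7 with complete coding transcripts only) and the number of coding genes past 1.5-fold between libraries (2897, and 3819 with no filter on low counts) stayed within 1.5 times under every setting run. The median level of 11.9 TPM became 50.5 when TPM were rescaled over protein-coding genes and 6.83 over complete coding transcripts, a setting added after the data were seen; leaving out a replicate gave 9.95 to 13.8 TPM. The median share of the leading transcript over the 4 genes with several, averaged over the libraries, was 64.8% of TPM but 40.9% of expected counts, and 64.0 to 65.7% with a replicate left out. The median log2 ratio between libraries was 0.22 with TMM, DESeq2 and total counts, and −0.42 from deposited TPM. There the signs also turned for Calb1 (−0.67), Pcp4 (−0.52), Car8 (−0.42), Lhx5 (−0.30), Skor2 (−0.24) and Itpr1 (−0.12). Pcp2 kept its sign, but its log2 ratio was 0.06 from deposited TPM in place of 0.65, no longer past 1.5-fold. TPM has a fixed sum, of which coding genes held less in replicate 2. With TPM rescaled over coding genes, Calb1 was still lower in replicate 2 (72.4 and 66.2). Pcp4, Car8, Lhx5, Skor2 and Itpr1 were higher in replicate 2 on that scale. The cause of these turns was not tested. No paired analysis was possible because the series has 1 group.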
